A study of Homo sapiens with 12 samples.

Results

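The 9 genes described here encode enzymes that build sphingolipids: SPTLC1, SPTLC2, SPTLC3, CERS2, CERS6, DEGS1, SGMS1, SGMS2 and UGCG. They were listed by name, 9 of 19974 protein-coding genes, and were read through the histone-mark summits at their ends, inside them and within 50 kb of their ends. A summit is the position of highest signal in a region that the authors' peak caller reported. The list was drawn up with earlier results of these data known, so the values are a description of 9 named genes. No test was run on them.

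Sphingolipids are made from serine and a fatty acyl-CoA. Serine palmitoyltransferase, whose large subunits are SPTLC1, SPTLC2 and SPTLC3, makes the long-chain base. The ceramide synthases CERS2 and CERS6 add a second fatty acid, and the desaturase DEGS1 turns dihydroceramide into ceramide. The sphingomyelin synthases SGMS1 and SGMS2 then move phosphocholine from phosphatidylcholine to ceramide, and UGCG adds glucose to ceramide in place of phosphocholine, so that choline enters the pathway at the sphingomyelin step.

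The study asked how choline alters enhancer marks in Huh7, a human hepatocellular carcinoma line labelled as liver. Wild-type (WT) cells were kept for 48 h at 0 or 15 µM choline, in both cases in custom DMEM free of choline chloride, with B-27 replacing the serum. Chromatin immunoprecipitation was done with antibodies to H3K27ac, a mark of active promoters and enhancers, and to H3K4me1, a mark of enhancers that are active or poised. Each antibody was used on 1 library per dose, all from 1 cell line, so a difference between doses compares 2 libraries without replicates.

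The H3K27ac lists held 37946 summits at 0 µM and 29305 at 15 µM, a ratio of 0.772. The H3K4me1 lists held 343156 and 349202, a ratio of 1.02. Read depth is unknown, and a count of summits is not a level of signal, because a caller can split a broad region into several summits or pass over a weak one. Hepatocyte markers had H3K27ac summits within 50 kb of their ends for 9 of 9 genes at each dose. Their per-gene counts added up to 144 at 0 µM and 184 at 15 µM, where a summit shared by windows counts once per gene. ALB and AFP, neighbours whose windows overlap, had 24 and 18 at 0 µM and 44 and 42 at 15 µM. APOB, TTR, SERPINA1 and HNF4A had fewer at 15 µM. The 4 blood markers had 3 and 2, the 4 fibroblast and endothelial markers 8 and 10, and the 2 neuronal markers 1 and 0.

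Promoter sequences were taken from RefSeq (GRCh38.p14), as the 300 bases from 250 before to 50 after an annotated start. They had entries for 7 of the 9 members, 10 entries in all. SGMS1 was the only member with H3K27ac within 1 kb of a gene end at both doses. UGCG and CERS6 had more summits in their H3K27ac windows at 15 µM, and SPTLC1 had fewer in its H3K4me1 window. A promoter of SGMS2 holds an H3K4me1 summit at 15 µM. Shown here are promoters of these genes, on which the results below turn. Each runs 5′ to 3′ on the gene's own strand, and capitals mark GC boxes, GGGCGG or its reverse complement CCGCCC.
SGMS1, chr10:50623907-50624206, minus strand: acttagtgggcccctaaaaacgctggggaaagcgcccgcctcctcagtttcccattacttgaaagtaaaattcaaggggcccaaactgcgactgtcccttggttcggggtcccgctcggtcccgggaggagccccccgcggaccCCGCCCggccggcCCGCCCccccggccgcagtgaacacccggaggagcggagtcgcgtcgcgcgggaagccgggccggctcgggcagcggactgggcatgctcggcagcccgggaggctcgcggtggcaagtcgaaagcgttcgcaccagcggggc
UGCG, chr9:111896564-111896863, plus strand: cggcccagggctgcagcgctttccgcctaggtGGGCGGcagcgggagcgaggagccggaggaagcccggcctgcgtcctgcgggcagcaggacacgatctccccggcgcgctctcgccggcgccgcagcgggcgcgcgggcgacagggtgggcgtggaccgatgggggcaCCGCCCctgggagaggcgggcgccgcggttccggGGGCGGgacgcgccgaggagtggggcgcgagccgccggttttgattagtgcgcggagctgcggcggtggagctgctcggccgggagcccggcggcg
CERS6, chr2:168456022-168456321, plus strand: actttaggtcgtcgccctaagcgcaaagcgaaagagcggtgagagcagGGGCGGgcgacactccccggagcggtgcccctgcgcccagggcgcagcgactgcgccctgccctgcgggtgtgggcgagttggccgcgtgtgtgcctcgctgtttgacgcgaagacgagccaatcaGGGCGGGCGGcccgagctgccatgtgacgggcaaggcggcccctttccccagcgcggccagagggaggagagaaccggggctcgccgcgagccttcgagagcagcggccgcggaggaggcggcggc
SPTLC1, chr9:92115364-92115663, minus strand: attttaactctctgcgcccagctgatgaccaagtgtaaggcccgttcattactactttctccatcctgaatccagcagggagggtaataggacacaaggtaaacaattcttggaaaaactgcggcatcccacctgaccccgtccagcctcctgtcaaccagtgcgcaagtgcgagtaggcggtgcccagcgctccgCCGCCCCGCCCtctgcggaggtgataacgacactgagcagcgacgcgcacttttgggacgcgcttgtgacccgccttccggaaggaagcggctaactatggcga
SGMS2, chr4:107824313-107824612, plus strand: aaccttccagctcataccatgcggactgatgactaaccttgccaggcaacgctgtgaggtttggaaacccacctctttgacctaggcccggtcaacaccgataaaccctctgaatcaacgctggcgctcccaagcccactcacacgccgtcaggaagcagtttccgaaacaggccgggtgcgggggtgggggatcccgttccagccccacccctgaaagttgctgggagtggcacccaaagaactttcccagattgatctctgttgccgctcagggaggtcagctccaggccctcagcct

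The printed promoters of UGCG and CERS6 each held 3 GC boxes, and those of SGMS1 and SPTLC1 each held 2. In CERS6 and SPTLC1, 2 GC boxes overlap and appear as 1 longer run of capitals. The printed SGMS2 promoter held none, and another SGMS2 entry 369 bases further into the gene held 3. A GC box was found in 7 of the 10 entries, with at least 1 entry for each of the 7 members, and in 45.0% of the 35116 promoters of the table. CACCC, the box bound by Krüppel-like factors such as KLF5, was found on either strand in 9 of the 10 entries, that of SPTLC1 being the exception, and in 59.9% of all promoters. The printed SGMS2 promoter held 4 of them, more than 95.9% of all promoters did. CCNCNCCC, a looser form that can overlap a GC box, was found in 9 of the 10 entries and in 56.2% of all promoters. The printed promoters of UGCG, CERS6 and SGMS1 were 79.0%, 72.3% and 70.3% GC. Those of SGMS2 and SPTLC1 were 59.0% and 57.7%, beside a median of 58.7% over all promoters. The motif shares were not adjusted for GC content, and DEGS1 and SGMS2 each had more than 1 of the 10 entries. A match gives the letters of a window and says nothing of binding.

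H3K27ac lay unevenly over the pathway. Within 50 kb of either gene end, the 9 members had 38 summits in all at 0 µM and 41 at 15 µM. Their median was 3 and 4 summits, beside 2 and 1 over all protein-coding genes. SPTLC1, DEGS1 and SGMS2 had none at either dose, which was so for 32.8% of all genes, and SPTLC2 had 1 at 0 µM and 0 at 15 µM. The other 5 members held the rest, and each of them also had a summit inside the gene at both doses, 5 of 9 beside 34.1% of all genes at 0 µM and 24.2% at 15 µM. H3K4me1 summits were present around all 9 genes, 300 at 0 µM and 292 at 15 µM, with a median of 39 and 37 beside 20 and 21 over all genes. These comparisons with all genes were not adjusted for gene length. A longer gene can have a wider window and has a longer body, and the members ran from 9.65 kb (CERS2) to 319.6 kb (SGMS1).

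**Figure D1:**
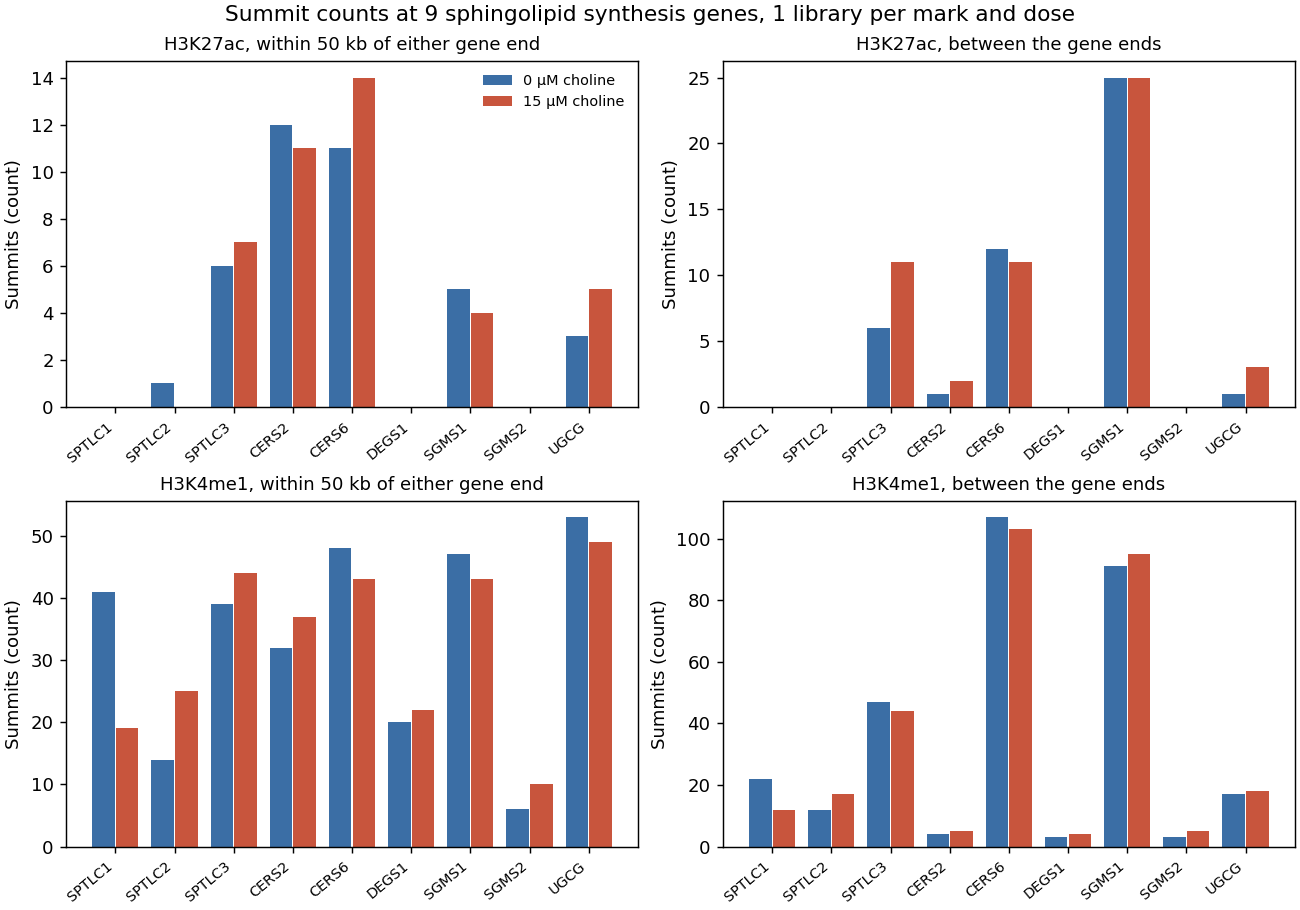
Number of summits (vertical axes) at each of the 9 genes at 0 µM (blue) and 15 µM choline (red), within 50 kb of either gene end (left) and between the gene ends (right), for H3K27ac (top) and H3K4me1 (bottom). Each bar is 1 library, so there are no error bars. SGMS1 had 25 H3K27ac summits inside the gene at each dose, and SPTLC1, SPTLC2, DEGS1 and SGMS2 had 0.

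H3K27ac at a gene end, meaning within 1 kb of either annotated end, was found for SPTLC3, CERS2 and SGMS1 at 0 µM, 3 of 9 beside 28.3% of all protein-coding genes. At 15 µM it was found for SGMS1 alone, 1 of 9 beside 16.2%. Of the 3 ends with a summit at 0 µM, 1 was lost, that of SPTLC3, meaning that the 15 µM list had no summit within 2 kb of either end of the gene. Over all genes 43.9% of such ends were lost. No member gained an end, and over all genes 10.5% of the ends with a summit at 15 µM were gained. H3K4me1 was at an end of 7 members at 0 µM and 8 at 15 µM, beside 51.6% and 52.9% of all genes. Counted per gene over both ends together, none was lost or gained, beside 8.92% lost and 10.9% gained over all genes. Single ends did differ. At the CERS6 start a 0 µM summit lay 769 bp upstream, and the nearest at 15 µM were 2102 bp upstream and 2079 bp downstream. At 15 µM a summit lay 218 bp outside the lower end of SPTLC2 and another 243 bp outside the higher end of SPTLC3. Neither of these 2 ends had a 0 µM summit within 2 kb.

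SPTLC1 encodes the large subunit that every serine palmitoyltransferase complex contains. The gene spans chr9:92031147-92115413 on the minus strand. No H3K27ac summit lay inside it or within 50 kb, and the nearest was 178.6 kb away at 0 µM and 176.5 kb away at 15 µM. H3K4me1 summits in its window numbered 41 without choline and 19 with 15 µM. The fold of 15 over 0 µM, after multiplying the 0 µM count by the ratio of list lengths and adding 1 to each count, was 0.468. It was the only member past 1.5-fold lower, meaning a fold of 1.5 or more in that direction, beside 6.32% of 18875 genes with 5 or more H3K4me1 summits, and 1.20% of those genes had a fold at or below that of SPTLC1. The fold was between 0.429 and 0.525 under every other window size, scaling, bin or score limit tried.

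The SPTLC1 difference was spread along the locus. Below the lower-coordinate end there were 7 summits at 0 µM and 3 at 15 µM, inside the gene 22 and 12, and above the higher end, the side of its start, 12 and 4. The median distance between neighbouring summits was 2170 bp at 0 µM and 5400 bp at 15 µM. Counted as occupied 5 kb bins, the numbers were 21 and 15. Most of these summits were weak. The median score, the authors' −log10 of a p- or q-value, was 2.65 at 0 µM and 3.17 at 15 µM, and 7 and 3 summits scored 5 or more. Of the 41 summits at 0 µM, 10 had a 15 µM summit within 500 bp (24.4%, exact Clopper-Pearson 95% interval 12.4 to 40.3), beside 44.5% of the list. Of the 19 at 15 µM, 8 had one at 0 µM (42.1%, 20.3 to 66.5), beside 43.5%. With only 19 summits at 15 µM, the first share is limited by the difference in counts and is not a separate result. Of the summits scoring 5 or more, 1 of 7 at 0 µM and 1 of 3 at 15 µM had one at the other dose within 500 bp. The highest at 15 µM, scoring 19.7, lay 244 bp from the second highest at 0 µM, scoring 7.53, inside the gene 14.4 kb from its higher end.

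SPTLC2, the partner subunit of SPTLC1 in the most common form of the enzyme, spans chr14:77505997-77616637 on the minus strand. Its only H3K27ac summit, at 0 µM, lay 48.2 kb beyond the lower end and just inside the 50 kb limit. That summit, scoring 17.1, sat within 1 kb of the ends of the neighbouring genes VIPAS39 and AHSA1. At 15 µM the nearest H3K27ac summit was 465.2 kb away. H3K4me1 went the other way from SPTLC1, with 14 summits in the window at 0 µM and 25 at 15 µM, a fold of 1.71. Folds at least this high were seen for 4.52% of genes. Inside the gene there were 12 and 17 summits, and above the higher end, where the gene starts, 0 and 3. With summits scoring 5 or more alone, the counts were 3 and 4, a fold of 1.29.

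**Figure D2:**
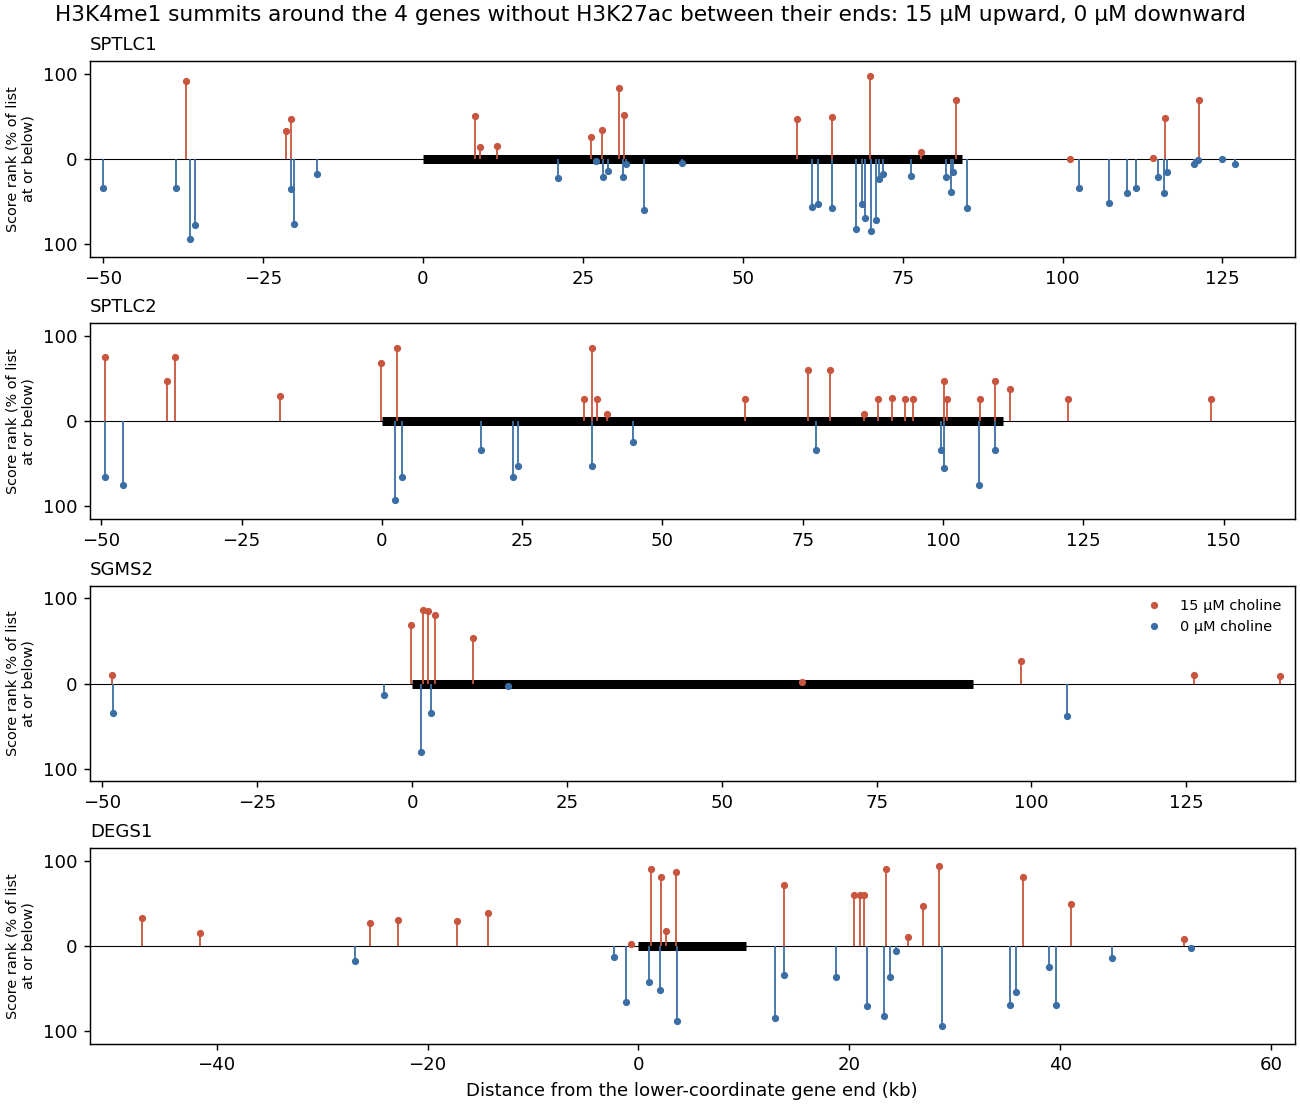
H3K4me1 summits at SPTLC1, SPTLC2, SGMS2 and DEGS1 by distance from the lower-coordinate gene end in kb (horizontal axes), with 15 µM drawn upward in red, 0 µM downward in blue and the gene as a black bar. The height of each line is the share of that list with a score at or below the summit's, in percent. SPTLC1 has 41 summits downward and 19 upward, and SPTLC2 14 and 25.

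SPTLC3, a further large subunit that lets the enzyme use shorter acyl chains, spans chr20:13008972-13169103. Of the 3 large subunits it was the only one with H3K27ac summits inside the gene. Within 50 kb of its ends there were 6 summits at 0 µM and 7 at 15 µM, and inside the gene 6 and 11. With summits scoring 10 or more alone, the gene held 4 and 3, so the direction turned. At 0 µM a summit scoring 15.6 lay 107 bp inside the lower end, at position 13009079, and the nearest 15 µM summit was 9581 bp from it, which made this the lost end. If no summit was allowed within 10 kb, the end no longer counted as lost. H3K4me1 was present there at both doses, with a summit 826 bp inside the lower end at 0 µM, scoring 12.3, and 986 bp inside it at 15 µM, scoring 13.8.

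The strongest H3K27ac summit of any member lay 31.8 kb outside the lower end of SPTLC3 at 0 µM, with a score of 89.5, at or above 99.7% of its list. At 15 µM the matching summit, 449 bp away, scored 94.9, at or above 99.99% of its list. Inside the gene, summits clustered from 80.1 to 96.1 kb from the lower end at 0 µM, where there were 5, and from 78.5 to 96.6 kb at 15 µM, where there were 11. The cluster reaches the end of TASP1, a neighbouring protease gene that overlaps SPTLC3, and 2 of its summits at each dose lay within 1 kb of that end. The 2 lists shared its strongest site to within 6 bp, at 81.4 kb, where the scores were 60.9 without choline and 22.6 with it. Over the whole gene with 50 kb on either side there were 11 and 18 summits, a fold of 2.0, and 2.41% of 7472 genes had a fold at least as high. The window by itself gave 1.42, which is under 1.5-fold, and the 20 kb window gave 0.904.

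CERS2, the ceramide synthase for very long acyl chains and the main one of liver, is a short gene at chr1:150965186-150974835. H3K27ac summits in its window numbered 12 at 0 µM and 11 at 15 µM. Of these, 9 and 8 lay inside the neighbouring genes SETDB1, ANXA9, MINDY1 and PRUNE1, so most of the window count lay within other genes. Which gene these summits act on was not tested. Inside CERS2 there was 1 summit at 0 µM and there were 2 at 15 µM. The 0 µM summit, 6.49 kb from the lower end, scored 65.8, at or above 99.0% of its list. The 15 µM list had a summit 66 bp from it with a score of 8.89, at or above 34.2% of its list, and its stronger one lay at 7.96 kb with a score of 17.3. The summit counted at the gene end at 0 µM lay 520 bp beyond the higher end and scored 13.3. At 15 µM a summit lay 1690 bp inside that end, so the end was not counted as lost. H3K4me1 counts in the window were 32 and 37.

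CERS6, the ceramide synthase that prefers palmitoyl-CoA, spans chr2:168456272-168775134 on the plus strand, and no H3K27ac summit lay at either end. Its window had 11 H3K27ac summits without choline and 14 with 15 µM, a fold of 1.58. It was 1 of 2 members past 1.5-fold higher of the 5 with 5 or more window summits, beside 14.3% of 7179 genes, and 0 of 5 were past 1.5-fold lower, beside 22.9%. The fold fell below 1.5 without scaling for list length (1.25) and over the whole gene with 50 kb (1.35, from 15 and 16 summits).

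The nearest H3K27ac summit to the annotated CERS6 start was downstream, 11.6 kb away at 0 µM and 9.74 kb at 15 µM. From there a cluster of 8 summits ran to 37.3 kb at 0 µM, and one of 9 summits ran to 37.97 kb at 15 µM. Its strongest member, about 37 kb into the gene, scored 36.0 and 21.5, and the 2 positions were 412 bp apart. A second cluster near the middle of the gene had 4 summits at 0 µM and 2 at 15 µM. The other 3 and 5 window summits lay beyond the higher end, inside the neighbouring gene NOSTRIN. Without the NOSTRIN summits, an alternative chosen after seeing the data, the CERS6 window held 8 and 9, a fold of 1.39, which is under 1.5. H3K4me1 summits inside the gene numbered 107 and 103, the most of any member, and the strongest lay at 10.0 kb at 0 µM (score 27) and at 12.3 kb at 15 µM (score 49.3), close to the lower edge of the H3K27ac cluster.

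**Figure D3:**
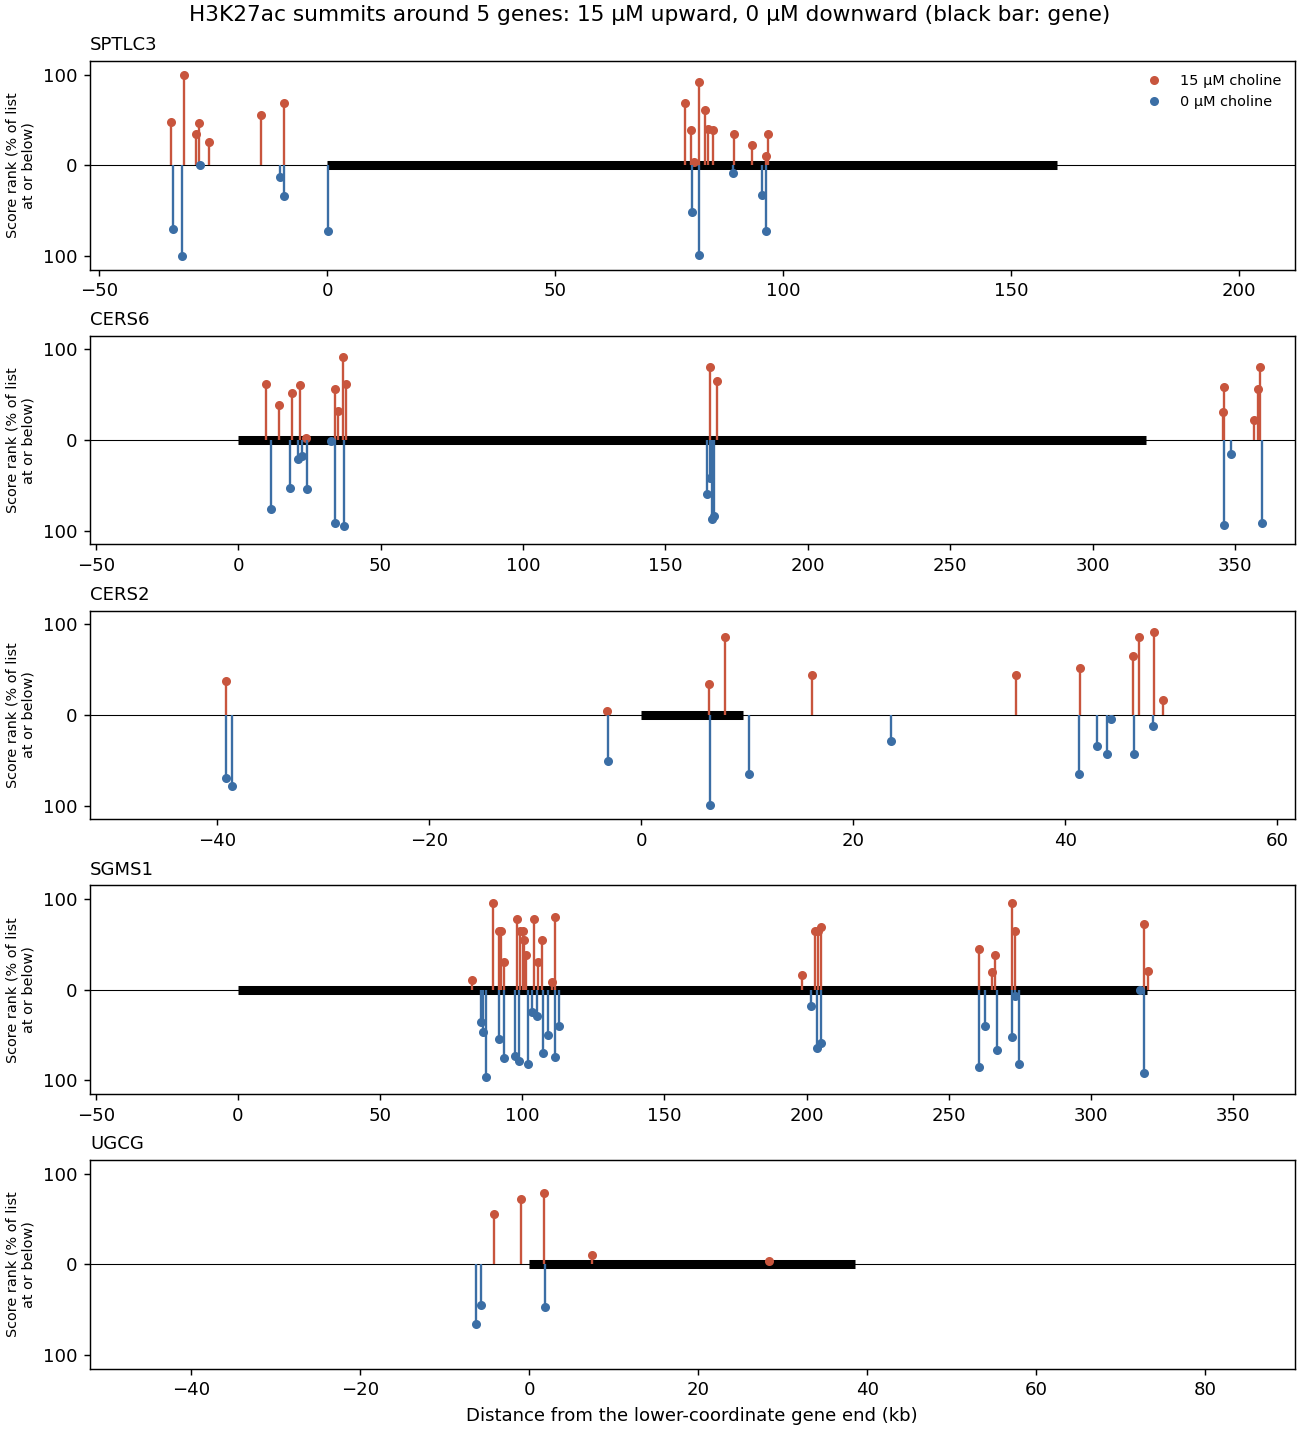
H3K27ac summits at SPTLC3, CERS6, CERS2, SGMS1 and UGCG by distance from the lower-coordinate gene end in kb (horizontal axes), with 15 µM drawn upward in red, 0 µM downward in blue and the gene as a black bar. The height of each line is the share of that list with a score at or below the summit's, in percent. SGMS1 shows 1 dense cluster of 14 summits at 0 µM and 15 at 15 µM, and SPTLC3 shows 5 and 11 in its internal cluster.

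DEGS1, the desaturase that completes ceramide, lies at chr1:224183240-224193441 on the plus strand and had no H3K27ac summit within 50 kb. The nearest was 69.1 kb away at 0 µM and 124.0 kb away at 15 µM. Its H3K4me1 window held 20 and 22 summits, a fold of 1.08, with 3 and 4 inside the gene. The summit nearest the first annotated start was 995 bp downstream at 0 µM and 718 bp upstream at 15 µM. The strongest H3K4me1 summit of the window, 28.8 kb from the lower end at 0 µM and 307 bp from that at 15 µM, scored 12.9 and 14.0 and lay beyond the gene.

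SGMS1, the sphingomyelin synthase of the Golgi, had more H3K27ac summits inside it than any other member. It spans chr10:50305600-50625184 on the minus strand and held 25 at each dose, or 0.782 per 10 kb. Counts of 25 or more at both doses were found for 75 of all genes (0.375%) and for 35 of the 771 genes of 300 kb or more (4.54%). CERS6, of nearly the same length, held 12 and 11. The window counts of SGMS1, 5 and 4, miss most of these summits, because they lie over 50 kb from either end.

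Most of the SGMS1 summits fell in 1 cluster, with neighbours joined within 12.5 kb. At 0 µM it held 14 summits over 27.5 kb, from 85.5 to 113.1 kb from the lower end, the side where the gene stops. At 15 µM it held 15 summits over 29.1 kb, from 82.4 to 111.4 kb. As many summits were found in 1.49% of 14332 clusters at 0 µM and in 1.66% of 10585 at 15 µM. Of the 14 summits, 7 had a 15 µM summit within 500 bp, and of the 15, 8 had one at 0 µM. Scores in the cluster ran from 8.34 to 39.3 at 0 µM and from 6.31 to 27.5 at 15 µM. Smaller groups of 3 and 4 summits lay near 200 kb, and of 6 and 5 summits from 260.5 kb on.

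The large SGMS1 cluster held almost no H3K4me1 summits, a feature picked out after its values were seen. There was 1 in its span at 0 µM and there were 2 at 15 µM, or 0.363 and 0.688 per 10 kb. The gene as a whole held 2.85 and 2.97 per 10 kb. Clusters with 10 or more H3K27ac summits numbered 481 at 0 µM and 441 at 15 µM, with a median of 3.71 and 2.95 H3K4me1 summits per 10 kb. At 0 µM no other of these clusters was as low as that of SGMS1, and at 15 µM 10 of them, SGMS1 included, were as low or lower (2.27%). The H3K4me1 summit there at 0 µM, 97.4 kb from the lower end, scored 23.9, at or above 99.4% of its list. Of those at 15 µM, the one at 91.7 kb scored 31.2, at or above 99.4% of its list, and the one at 111.4 kb scored 4.98, at or above 70.4%.

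Within 2 kb of a gene end, CERS2, SGMS1 and UGCG had H3K27ac in both libraries. SGMS1 alone had it within 1 kb, at its start. At 0 µM a summit scoring 30.4 lay at position 50624333, 377 bp upstream of the start whose promoter is printed above. At 15 µM one scoring 13.2 lay 47 bp from it, 424 bp upstream of that start. Both fall outside the printed 300 bases and inside the gene as annotated, which extends further upstream. At 15 µM a further summit lay 420 bp beyond the annotated higher end.

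SGMS2, the sphingomyelin synthase of the plasma membrane, spans chr4:107824563-107915047 on the plus strand. It had no H3K27ac summit within 50 kb, the nearest being 146.8 kb away at 0 µM and 189.2 kb away at 15 µM. It also had the fewest H3K4me1 summits of the 9 genes, 6 in the window at 0 µM and 10 at 15 µM, a fold of 1.55. With SPTLC2 it was 1 of 2 members past 1.5-fold higher, beside 8.47% of genes. The fold was under 1.5 with windows of 20 kb (1.15) and 100 kb (1.04) and with lists of equal length (1.43). With summits scoring 5 or more alone, the counts were 1 and 3, a fold of 2.04 that rests on fewer than the 5 summits required. Of the window summits, 3 of 6 at 0 µM and 4 of 10 at 15 µM lay within 5 kb of the first annotated start. At 15 µM there was 1 inside the printed promoter, 228 bp upstream of the start, and at 0 µM the nearest upstream summit was 4539 bp away. The strongest summits, 366 bp apart, lay 1436 bp downstream at 0 µM (score 6.35) and 1802 bp downstream at 15 µM (score 8.44). Genes of 80 kb or more with no H3K27ac summit inside at either dose, as for SGMS2, SPTLC1 and SPTLC2, made up 40.1% of 4180.

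**Figure D4:**
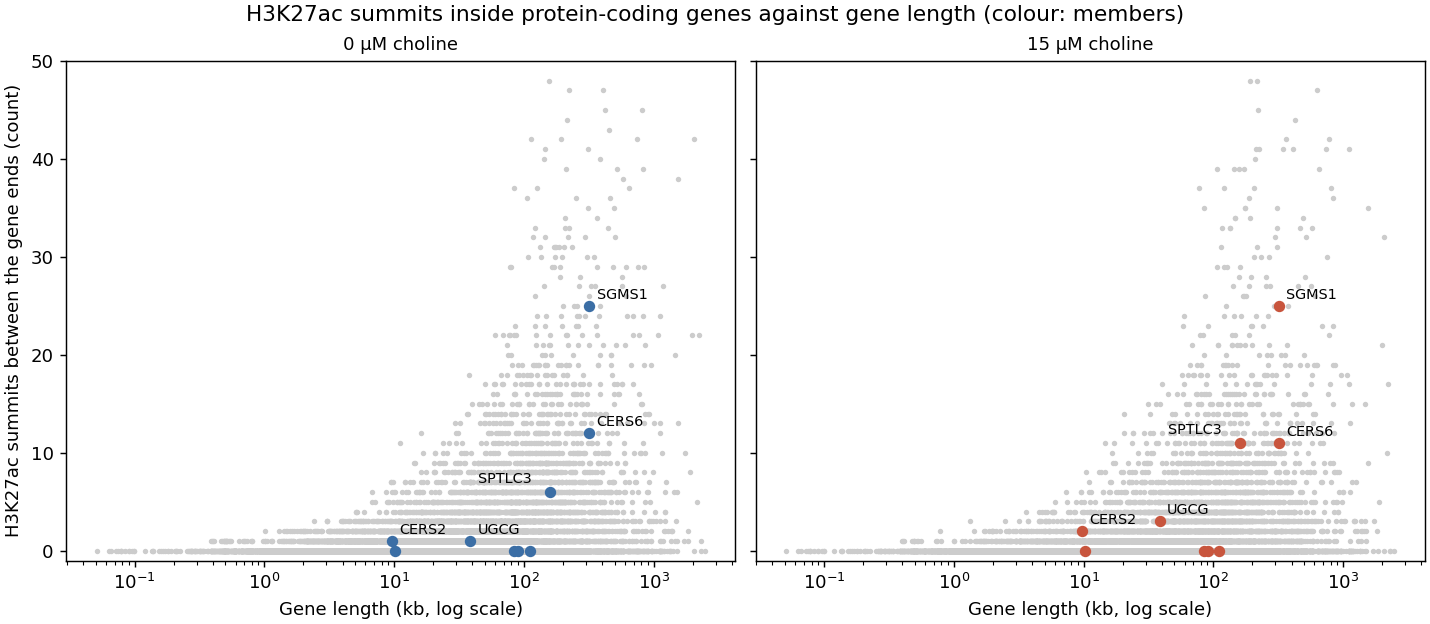
H3K27ac summits between the gene ends (vertical axes, count) against gene length (horizontal axes, kb, log scale) for all protein-coding genes (grey) and the 9 members (coloured) at 0 µM (left) and 15 µM (right). The axes stop at 50 summits, above which lie 14 genes at 0 µM and 13 at 15 µM. SGMS1 lies at 25 in both panels, and the unlabelled coloured points at 0 are SPTLC1, SPTLC2, DEGS1 and SGMS2.

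UGCG, the glucosylceramide synthase that opens the glycosphingolipid branch, spans chr9:111896814-111935369 on the plus strand, with no other protein-coding gene within 50 kb. Its window had 3 H3K27ac summits without choline and 5 with 15 µM, a fold of 1.81, and 5.63% of genes had a fold at least as high. At 0 µM they lay 6.37 and 5.68 kb upstream and 1.82 kb downstream of the start. At 15 µM they lay 4.23 and 1.04 kb upstream and 1.70, 7.38 and 28.4 kb downstream. Only the site just downstream of the start was shared within 500 bp, at 122 bp, where the scores were 10.7 without choline and 14.8 with it. The summits at 7.38 and 28.4 kb scored 6.74 and 5.92, near the bottom of their list. With summits scoring 10 or more alone, the counts were 3 and 3, a fold of 1.26. UGCG had the most H3K4me1 summits in its window, 53 and 49, and 3 and 2 of them lay at its ends.

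**Figure D5:**
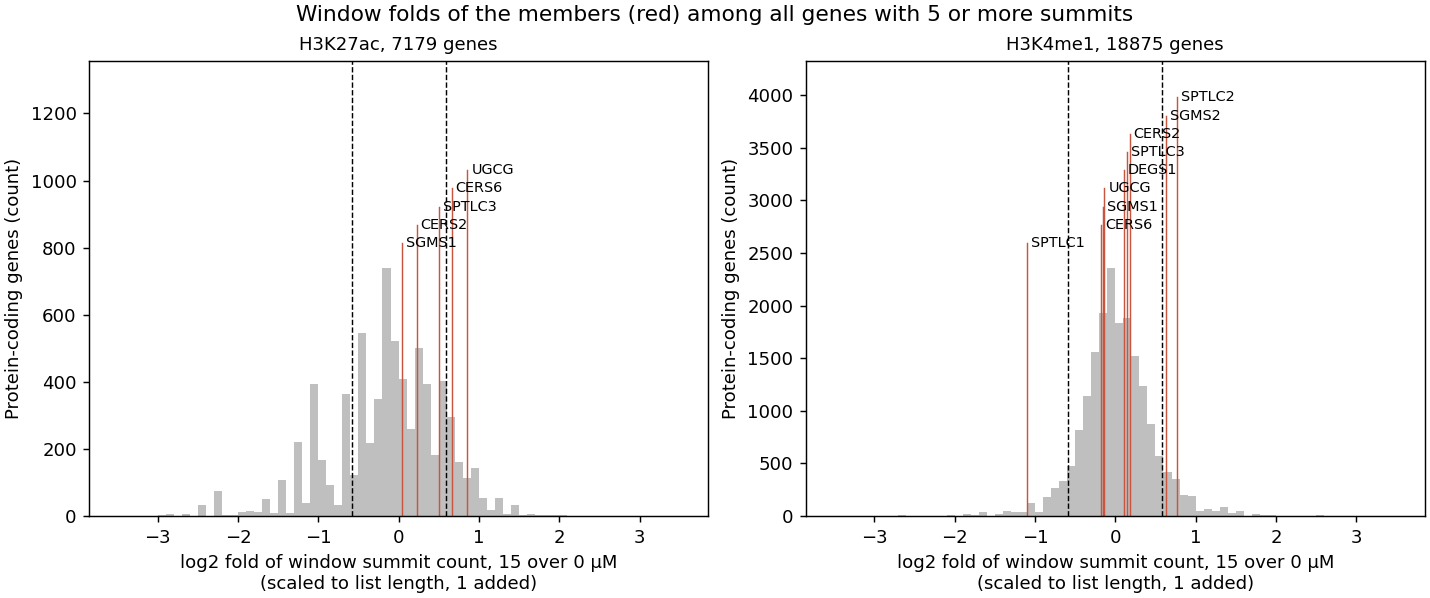
Distribution over protein-coding genes (grey, count on the vertical axes) of the log2 fold of the window summit count, 15 over 0 µM, scaled to list length with 1 added, for H3K27ac (left, 7179 genes) and H3K4me1 (right, 18875 genes) with 5 or more summits over both doses. Red lines mark the members and dashed lines 1.5-fold either way. UGCG and CERS6 lie past the right dashed line for H3K27ac, SPTLC2 and SGMS2 for H3K4me1, and SPTLC1 lies past the left one.

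Positions were compared between doses for the members' window summits pooled. A 15 µM H3K27ac summit lay within 500 bp of 20 of 38 window summits at 0 µM (52.6%, exact 95% interval 35.8 to 69.0), beside 38.7% of the list. In the other direction it was 20 of 41 (48.8%, 32.9 to 64.9), beside 50.7%. For H3K4me1 it was 135 of 300 (45.0%, 39.3 to 50.8) beside 44.5%, and 136 of 292 (46.6%, 40.7 to 52.5) beside 43.5%. Intervals cover counting error only, and summits of 1 gene are not independent.

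H3K27ac summits were also set against H3K4me1 summits of the same dose. Within the windows, 22 of 38 at 0 µM had an H3K4me1 summit within 1 kb (57.9%, exact 95% interval 40.8 to 73.7), beside 65.2% of the list. At 15 µM it was 21 of 41 (51.2%, 35.1 to 67.1), beside 58.5%. Both intervals hold the shares of the lists. The whole genes with 50 kb were an alternative chosen after seeing the data. Over them it was 32 of 67 at 0 µM (47.8%, 35.4 to 60.3) and 34 of 76 at 15 µM (44.7%, 33.3 to 56.6). SGMS1 gave 8 of 25 and 8 of 26 of these. The shares of the lists, 65.2% and 58.5%, lie above both whole-gene intervals. Summits of 1 gene are not independent, so no conclusion is drawn from either set of intervals.

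The other 42 sphingolipid genes examined had 139 H3K27ac window summits in all without choline and 109 with it, with a median of 2 and 1, as over all genes. Of the 42 genes, 7 had none at either dose, beside 32.8% of all genes. Among 16 with 5 or more, 3 were past 1.5-fold higher and 3 past 1.5-fold lower, beside 14.3% and 22.9% of all genes. For H3K4me1, 3 of 42 were higher and 1 was lower, beside 8.47% and 6.32%. An H3K27ac summit lay at an end of 11 genes at 0 µM and 6 at 15 µM, beside 28.3% and 16.2%. Of the 11 ends 4 were lost, beside 43.9%, and of the 6 none was gained, beside 10.5%. The lost ends were those of SPTSSA, a small subunit of serine palmitoyltransferase, CERT1, which carries ceramide to the Golgi, the sphingomyelinase SMPD4 and the sphingosine kinase SPHK2.

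All 5 partners of serine palmitoyltransferase had H3K27ac in their windows at 0 µM, and 4 did at 15 µM. Over all genes 35.0% had none in their windows at 0 µM and 48.8% had none at 15 µM. SPTSSB, its other small subunit, had 27 H3K27ac window summits without choline and 31 with it, the largest scaled difference of the 42 genes, with a fold of 1.46. The inhibitory regulators ORMDL1 and ORMDL2 had 4 and 2 each, with a summit at an end at both doses, and ORMDL3 had 1 and 0. B4GALT5, the lactosylceramide synthase that follows UGCG, had 20 at each dose, 19 of them inside the gene, and the next largest scaled difference, with a fold of 1.28. The other sphingomyelin-synthase family member, SAMD8, had 4 and 0.

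Genes whose counts were among the 3 most like those of CERS6, the member with the largest scaled rise in H3K27ac window summits, were SHANK2 and GNAQ, on other chromosomes. Likeness was the distance over the square roots of 8 counts, those of the window and the gene body in the 4 lists, and it was 1.29 and 1.60. SHANK2 had 9 H3K27ac window summits at each dose and 10 and 9 inside the gene. For SPTLC2, the member with the largest scaled fall, from 1 summit to 0, they were ZNF236 (0.526), FBXO8 (0.643) and TSHZ1 (0.803). Each had 1 H3K27ac window summit at 0 µM and 0 at 15 µM. The counts given here are among the 8 that set the likeness, so their closeness follows from how the genes were picked.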

How the data were processed

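The series lists 12 samples, of which the 4 H3K27ac and H3K4me1 ChIP-seq libraries were used through their summit lists, and 8 were not analysed here. The authors deposited 1 summit per line with a score, read as the −log10 of a p- or q-value because the lists have the MACS2 summit layout (p or q: not given in the sources used here). Per the submitters' processing notes, MACS2, Bowtie, deepTools and Picard were used with hg38, and no versions are named. Scores began at 5.01 for H3K27ac and at 1.31 and 1.30 for H3K4me1, so the marks were thresholded differently. Scores at 1 site are printed for both doses side by side and are not compared as levels, and a score limit was applied alike to both lists of a mark.

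Summits on chromosomes 1 to 22 and X were counted with Python 3.11.15 (pandas 2.3.3, numpy 2.4.6, scipy 1.17.1) against RefSeq gene positions of GRCh38.p14, which give no exons. Strand came from the promoter table, which has entries for 7 members. Counting was checked on simulated data. Windows, ends, lost ends, folds (1 added, 5 or more summits) and sharing are defined in the text. All 9 members are named, and of the other sphingolipid genes those with a lost or gained end and the 2 largest H3K27ac changes. Of the neighbours within 50 kb, the text above names those with an H3K27ac summit described there inside them or near an end. The others were ISM2 by SPTLC2, FBXO28, LOC124903813 and NVL by DEGS1, and CYP2U1 by SGMS2. Of the genes most like a member in their counts, 1 is not reported here. ORMDL1, ORMDL2, ORMDL3 and SAMD8 were named after their values were seen. The members and lists were chosen with earlier results of these data known. With 1 library per group no p-value was computed.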

Additional observations from a re-analysis of the deposited data

How the results depend on the processing

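Counts of genes past 1.5-fold depended on how summits were counted. A fold of exactly 1.5 was counted. For H3K27ac, 2 members were higher at 15 µM, 1 without scaling for list length (UGCG, at 1.5), and 3 with windows of 100 kb or with lists of equal length, where UGCG was also at 1.5. For H3K4me1, 2 were higher, 1 with windows of 20 kb, 1 with windows of 100 kb, 1 with lists of equal length and 0 with scores of 5 or more, where SGMS2 had too few summits to count (1 and 3). SPTLC1 remained past 1.5-fold lower for H3K4me1 under all 7 of these alternatives and was the only member that was. SPTLC3 passed 1.5-fold higher for H3K27ac with windows of 100 kb (1.86), over the whole gene (2.0), with lists of equal length (1.60) and with scores of 10 or more (1.89). Within 2 kb, CERS2, SGMS1 and UGCG had an H3K27ac end at both doses. Within 500 bp only SPTLC3 had one at 0 µM and only SGMS1 at 15 µM. Members with an H3K27ac end numbered 1 at 0 µM within 500 bp and 3 at 15 µM within 2 kb. Those with an H3K4me1 end numbered 2 at 0 µM and 4 at 15 µM within 500 bp. The lost end of SPTLC3 left 0 lost when no summit was allowed within 10 kb. Shares matched at the other dose moved with the distance allowed: within 1000 bp they were 65.9% for H3K27ac at 15 µM and 63.3% and 62.7% for H3K4me1 at 0 and 15 µM, and within 250 bp the H3K4me1 shares were 26.0% and 26.7%. H3K27ac summits with H3K4me1 within 500 bp made up 31.6% at 0 µM and 24.4% at 15 µM, and with H3K4me1 scores of 5 or more 34.1% at 15 µM. The cause of these differences was not tested beyond the change of setting itself. The following were chosen after seeing the data. Over the whole genes with 50 kb, 47.8% of H3K27ac summits at 0 µM and 44.7% at 15 µM had H3K4me1 within 1 kb. The lists gave 65.2% and 58.5%. H3K27ac summits inside the members numbered 45 and 52, stayed within 1.5 times of these in 1 kb bins and with equal lists, and numbered 31 and 29 with scores of 10 or more. With clusters joined within 5 kb, the largest of SGMS1 held 14 at each dose, that of CERS6 fell from 8 to 4 summits at 0 µM and from 9 to 5 at 15 µM, and that of SPTLC3 from 5 to 2 at 0 µM, while its 11 at 15 µM stayed. Without summits inside neighbouring genes the CERS6 window fold was 1.39. No paired analysis was possible because each mark and dose has 1 library, and for the same reason no library could be left out. Depth is unknown, so a count of 0 sets no limit on signal.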
